A study of Homo sapiens with 8 samples.

Results

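The RNA of 51 genes that drive a cell through G2 and mitosis was followed across light and heavy polysome pools of acute myeloid leukaemia cells. The genes were chosen as a list of symbols for mitotic kinases and cyclins, kinetochore, checkpoint, spindle, cytokinesis and chromosome proteins. Earlier results of these data were known when the list was made, so it is not an independent choice. All 51 were found among the 78932 Ensembl gene IDs of the count table, and all 51 were among the 24289 genes with enough counts to be tested. Human Molm13 cells, a line with rearranged KMT2A and an internal duplication in FLT3, and U937 cells, a line of monocytic character, had been given OGFOD1 by a lentiviral overexpression vector (labelled OE) or were labelled control. OGFOD1 is a prolyl hydroxylase of the ribosomal protein RPS23. All cells had been treated with cycloheximide, which holds ribosomes on their mRNA, and every lysate was run on a sucrose gradient. The heavy pool combined the fractions with 3 or more ribosomes, and the light pool combined free ribonucleoprotein, monosome and disome fractions. The 8 libraries were OE heavy, control heavy, OE light and control light, each once under the Molm13 label and once under the U937 label, so n = 2 per group. The promoter of the vector is not stated in the sources used here. The library names of the control samples hold the letters Scr, which the labels do not spell out, and nothing says that a line was run on more than 1 gradient per genotype. P-values therefore measure only the spread between these libraries, which may be technical.

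Cells enter mitosis when the kinase CDK1 is bound by A and B type cyclins and freed of inhibitory phosphate by CDC25 phosphatases. Polo and Aurora kinases then build the spindle, kinetochores tie chromosomes to it, and the spindle checkpoint holds back the anaphase promoting complex until every kinetochore is attached. The mRNAs of these genes are transcribed in a wave in G2, so in a dividing leukaemia population their level follows the share of cells in G2 and mitosis as well as the level in each such cell. The libraries here hold RNA of gradient pools, each scaled to its own total, and none holds unfractionated RNA. In such values, fewer cells in G2 or mitosis, less mitotic RNA per cell and a change in the other RNA of a pool cannot be told apart.

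A feature that many of these genes share lies in their promoters. Whether it has a part in their values under the OE label, given below, was not tested. The CHR motif (cell cycle genes homology region; TTTGAA or TTTAAA, searched on both strands) is the element through which the MuvB complexes with FOXM1 and MYBL2 act on G2 genes, and CCAAT boxes (CCAAT, searched on both strands, so also ATTGG) often lie near it. RefSeq promoter windows of GRCh38.p14, from 250 bases before to 50 bases after a transcript start, were found for 42 of the 51 genes, in 54 windows. AURKA, BIRC5, BUB3, FOXM1, KNL1, RACGAP1, TPX2, TTK and UBE2C had no window there. A CHR motif lay in 42 of the 54 windows (77.8%), against 24.0% of all 35116 promoters in the table. From 100 bases before to 50 after the start, the share was 70.4% in the 54 windows and 11.2% in all promoters. A CCAAT box lay in 70.4% of the 54 windows and 34.6% of all promoters. The promoters of SPC25, MKI67, CENPF and BUB1B are shown because these were, in order of p, the first genes lower under the OE label with a CHR motif in the window. Each line runs 5′ to 3′ on the gene's strand from 150 bases before to 20 bases after the start. Capitals mark CHR motifs and CCAAT boxes.
SPC25 (chr2:168890411-168890580, minus strand): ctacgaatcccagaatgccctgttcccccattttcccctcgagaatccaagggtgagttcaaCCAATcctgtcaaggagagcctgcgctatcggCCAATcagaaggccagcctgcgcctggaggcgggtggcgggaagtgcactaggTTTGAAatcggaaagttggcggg
MKI67 (chr10:128126404-128126573, minus strand): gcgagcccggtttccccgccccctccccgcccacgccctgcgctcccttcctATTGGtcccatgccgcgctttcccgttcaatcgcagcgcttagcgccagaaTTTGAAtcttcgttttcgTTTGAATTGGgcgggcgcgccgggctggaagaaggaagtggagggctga
CENPF (chr1:214603045-214603214, plus strand): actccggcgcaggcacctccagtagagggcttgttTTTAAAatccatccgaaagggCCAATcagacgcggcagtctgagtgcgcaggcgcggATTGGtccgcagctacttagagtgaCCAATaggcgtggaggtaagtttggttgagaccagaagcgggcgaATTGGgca
BUB1B (chr15:40160919-40161088, plus strand): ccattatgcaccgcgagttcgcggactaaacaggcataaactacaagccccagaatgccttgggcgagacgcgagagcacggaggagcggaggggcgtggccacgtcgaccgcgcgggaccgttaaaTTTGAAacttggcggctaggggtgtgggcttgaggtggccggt
In the printed stretch of SPC25 a CHR motif begins 3 bases before the start and reaches over it (a second one lies upstream of the stretch, 247 bases before the start), and 2 CCAAT boxes begin 88 and 56 bases before it. MKI67 has CHR motifs 47 and 29 bases before the start, and its second one shares its last base with an ATTGG. In CENPF a TTTAAA lies 115 bases before the start, with CCAAT or ATTGG at 94, 58 and 33 bases before the start and 13 bases after it. Beyond the printed stretch CENPF has a TTTGAA 41 bases after the start, which places it among the genes with a motif in the narrower span. BUB1B has a single CHR motif 23 bases before its start and no CCAAT box in the whole window. Among the 42 genes, 36 had a CHR motif within 100 bases before to 50 after a start, and their median log2 fold change of OE against control over both pools was -0.57. The 6 without one (AURKB, BUB1, CCNA2, CENPW, NCAPD2 and TOP2A) had a median of -0.78. A match is a run of letters and not a measured binding site.

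Several libraries went against their labels. OGFOD1 had lower levels under the OE label in every pair: 25.3 (Molm13) and 12.4 CPM (U937) in the OE heavy libraries, against 44.4 and 60.2 CPM in the control heavy libraries, and 16.7 and 10.1 CPM in the OE light libraries, against 33.0 and 49.8 CPM in the control light libraries (log2 fold change over both pools -1.60, SE 0.30, edgeR adjusted p = 0.0178). CPM are counts scaled to a common library total, after TMM scaling. Directions below go by the labels, and the cause was not tested. The Molm13 control light library resembled heavy libraries: over 9299 genes with a mean of at least 10 CPM its Spearman correlation was 0.893 to 0.923 with the 4 heavy libraries and 0.788 to 0.814 with the other 3 light libraries, which correlated with each other at 0.863 to 0.962. The counts and medians over the 51 genes are therefore also given without that library, as are the fold changes of the genes called over both pools. The Molm13 control light library was also the deepest, with 89373133 counts, and Molm13 OE heavy the shallowest, with 25741930. All 12 myeloid and haematopoietic markers were detected in all 8 libraries. Their summed levels were 1114 to 2105 CPM in OE and 1024 to 1494 CPM in control libraries. These sums covered changes in both directions. ITGAM was higher under the OE label over both pools (log2 fold change 1.79, SE 0.26, edgeR adjusted p = 0.0116). It had 37.3 to 53.8 CPM in OE and 6.21 to 22.6 CPM in control libraries. MPO was lower under the OE label over both pools (-1.01, SE 0.24, edgeR adjusted p = 0.0358). Erythroid markers summed to at most 0.131 CPM and megakaryocyte markers to at most 0.505 CPM. The 3 T cell markers summed to 15.6 to 120.1 CPM in OE and 1.40 to 32.1 CPM in control libraries, nearly all of it CD3D, while CD3E and CD3G were at 0.338 CPM or less. The 3 B cell markers summed to 1.49 to 7.18 CPM in OE and 0.541 to 5.16 CPM in control libraries, with MS4A1 at 0 in all of them. The 4 fibroblast and epithelial markers summed to 1.47 to 3.39 CPM in OE and 2.47 to 6.92 CPM in control libraries, most of it KRT8. Their part in the results was not tested.

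Most of the mitotic genes had lower values under the OE label, and 7 passed the threshold (an adjusted p of 0.05) over both pools. Of the 51, 48 had a negative log2 fold change of OE against control, with a median of -0.61 against -0.05 over all 24289 genes. CENPW, SPC25, MKI67, CENPF, BUB1B, KIF11 and TPX2 fell, at edgeR adjusted p-values of 0.0244 to 0.0487, and none rose. Across all genes, 4.37% were called, 2.36% lower and 2.01% higher, so 7 of 51 is above that background. At an unadjusted p under 0.05, 32 of 51 were lower, against 12.2% of all genes, and none was higher, against 9.96%. The values of 30 of the 51 were lower under OE in all 4 matched pairs of libraries, against 14.4% of all genes. The summed level of the 51 genes was 3203 (Molm13) and 2823 CPM (U937) in the OE heavy libraries, against 4399 and 4689 CPM in the control heavy libraries. It was 1854 and 1921 CPM in the OE light libraries, against 2868 and 3010 CPM in the control light libraries, so the sums of the groups did not overlap in either pool.

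The kinetochore gave 3 of the 7 genes. CENPW (chromosome 6, 126340174 to 126348875, plus strand, GRCh38), a small histone-fold subunit of the inner kinetochore, had 227 (Molm13) and 129 CPM (U937) in the OE heavy libraries, against 299 and 305 CPM in the control heavy libraries. In the light pool it had 18.3 and 17.2 CPM in the OE light libraries, against 120.1 and 43.9 CPM in the control light libraries. All OE libraries lay below the control libraries of their pool, and the largest ratio was in the Molm13 light pair. Over both pools its fold change (log2) was -1.46 (SE 0.30, adjusted p = 0.0244), and -1.13 without the Molm13 control light library. SPC25 (chromosome 2, 168834132 to 168913371, minus strand), a subunit of the NDC80 complex that grips microtubules, had 42.4 (Molm13) and 30.8 CPM (U937) in the OE heavy libraries, against 59.8 and 66.5 CPM in the control heavy libraries. It had 9.63 and 10.3 CPM in the OE light libraries, against 29.9 and 20.9 CPM in the control light libraries. The groups did not overlap in either pool, and the fold change was -1.07 (SE 0.23, adjusted p = 0.0281). CENPF (chromosome 1, 214603195 to 214664588, plus strand), a large kinetochore protein that accumulates in G2, had 70.2 (Molm13) and 45 CPM (U937) in the OE heavy libraries, against 123 and 86.9 CPM in the control heavy libraries. It had 44.2 and 30.4 CPM in the OE light libraries, against 81.5 and 96.4 CPM in the control light libraries. Again the OE libraries lay below the control libraries in both pools, with a fold change of -1.09 (SE 0.25, adjusted p = 0.0337).

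The other 4 belonged to chromosomes, checkpoint and spindle. MKI67 (chromosome 10, 128096659 to 128126385, minus strand), which encodes the proliferation antigen Ki-67 that coats mitotic chromosomes, had 39.1 (Molm13) and 32.1 CPM (U937) in the OE heavy libraries, against 116 and 62.2 CPM in the control heavy libraries. It had 36.1 and 20.9 CPM in the OE light libraries, against 49.4 and 54.6 CPM in the control light libraries. The groups did not overlap, and the fold change was -1.11 (SE 0.25, adjusted p = 0.0323). BUB1B (chromosome 15, 40161023 to 40221136, plus strand) encodes BUBR1, a checkpoint protein that inhibits the anaphase promoting complex. It had 16.4 (Molm13) and 19.5 CPM (U937) in the OE heavy libraries, against 47.5 and 41.1 CPM in the control heavy libraries, and 19.6 and 24.2 CPM in the OE light libraries, against 27.3 and 41.9 CPM in the control light libraries. The gap was wider in the heavy pool, and the fold change over both pools was -0.99 (SE 0.23, adjusted p = 0.0349). BUB1B shares 10.2% of its exonic bases with the readthrough gene BUB1B-PAK6. KIF11 (chromosome 10, 92593286 to 92655395, plus strand), the motor that pushes spindle poles apart, had 10.4 (Molm13) and 16.8 CPM (U937) in the OE heavy libraries, against 29.9 and 38.1 CPM in the control heavy libraries. In the light pool it had 18.1 and 25.1 CPM in the OE light libraries, against 19.7 and 38.7 CPM in the control light libraries, and there the U937 OE library lay above the Molm13 control library. Its fold change was -0.87 (SE 0.22, adjusted p = 0.0478). TPX2 (chromosome 20, 31739271 to 31801805, plus strand), the activator of Aurora A on spindle microtubules, had 24 (Molm13) and 30.4 CPM (U937) in the OE heavy libraries, against 78.9 and 52.8 CPM in the control heavy libraries. It had 21.4 and 26.5 CPM in the OE light libraries, against 33.5 and 37.1 CPM in the control light libraries. The groups did not overlap, and the fold change was -0.92 (SE 0.24, adjusted p = 0.0487). Without the Molm13 control light library all 7 genes were still called, and the other fold changes were -0.95 for SPC25, -1.28 for CENPF, -1.29 for MKI67, -1.10 for BUB1B, -0.98 for KIF11 and -0.95 for TPX2.

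**Figure D1:**
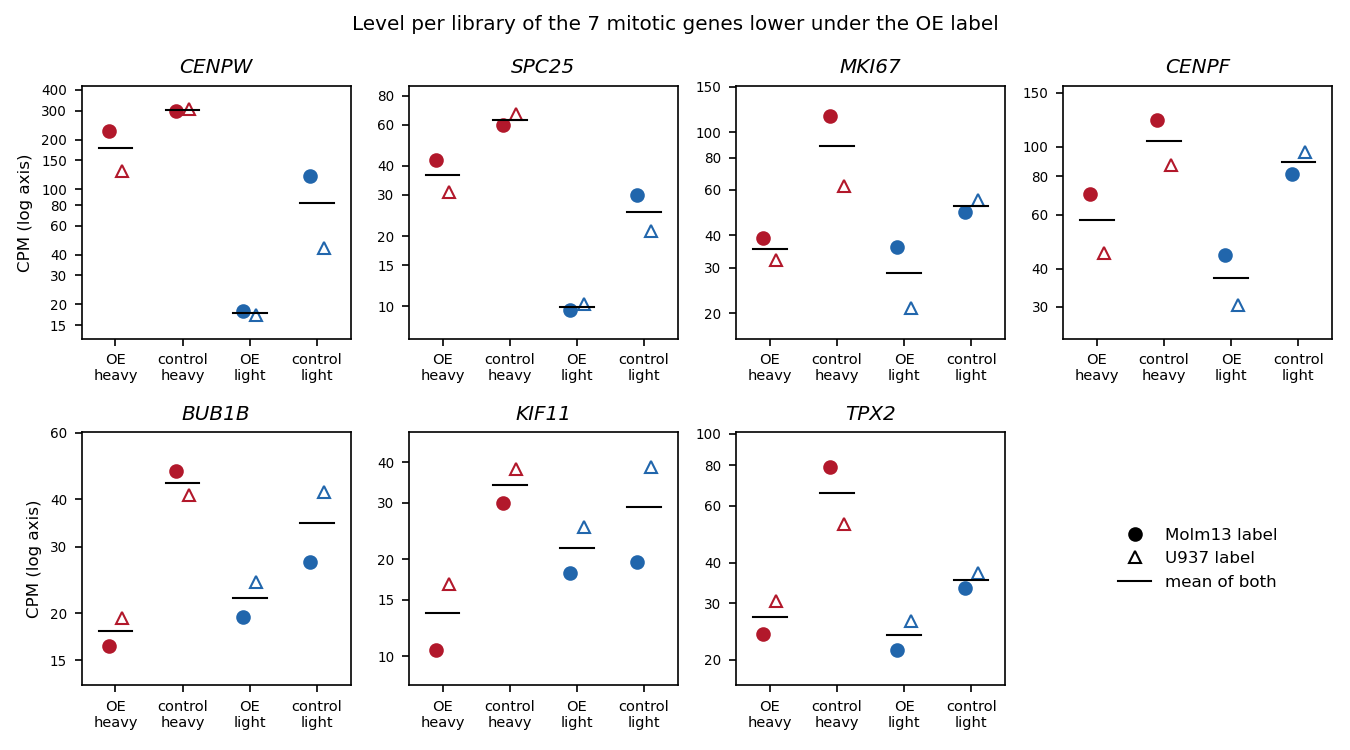
CPM per library (log axis) of the 7 genes called lower under the OE label over both pools, for OE heavy, control heavy, OE light and control light libraries; filled circles are Molm13, open triangles U937, and the line is the mean of both. In each panel the OE heavy points lie below the control heavy points, and in the light pool the groups overlap for KIF11 alone.

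These 7 calls rested on the spread between single libraries. With DESeq2 18 of the 51 were called, against 10.9% of all genes, and with limma voom and the gradient as a random block 23, against 13.3%. With the line term dropped (no replicate block) none was, at a smallest adjusted p of 0.0622, against 0.478% of all genes. With the pools of each gradient summed no gene of any kind was called, and the smallest adjusted p of a member was 0.114. The count was 21 without the Molm13 control light library and 12 without the U937 control light library, against 12.9% and 8.21% of all genes. It was 1 (CENPW) without Molm13 control heavy, against 1.33%, and 0 without U937 control heavy or any one of the 4 OE libraries. In those 5 fits between 0 and 690 of the 24289 genes were called, and without U937 OE heavy none was. The median ran from -0.71 to -0.53 over these 8 omissions. The number of negative members was 48 with RLE and 47 with upper-quartile scaling. Upper-quartile scaling left 5 members called, without KIF11 (adjusted p = 0.0592) and TPX2 (adjusted p = 0.0557), and all genes then had 752 calls higher and 481 lower in place of 487 and 574.

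Among kinases, cyclins and their regulators, 10 of 11 values were negative with a median of -0.50 and none passed. The lowest were CKS2 (-1.07, SE 0.31), a small subunit of CDK complexes, and CCNA2 (-0.91, SE 0.25), the cyclin of S phase and G2, at adjusted p-values of 0.0688 and 0.0586. CCNA2 had 46.4 (Molm13) and 62 CPM (U937) in the OE heavy libraries, against 84.5 and 120.0 CPM in the control heavy libraries. It had 49 and 53.1 CPM in the OE light libraries, against 66.2 and 137 CPM in the control light libraries, so the groups did not overlap in either pool. FOXM1, the transcription factor of the G2 wave, was at -0.71, and 15.9% of its exonic bases are shared with ITFG2. The mitotic kinase CDK1 was at -0.50, Polo kinase PLK1 at -0.58 and Aurora A (AURKA) at -0.43. The B cyclins CCNB1 and CCNB2 were at -0.38 and -0.55, and the phosphatases CDC25B and CDC25C at -0.42 and -0.21. CKS1B was the exception at 0.10 (SE 0.28), with 60.2 (Molm13) and 43.7 CPM (U937) in the OE heavy libraries, against 29.7 and 37 CPM in the control heavy libraries. It has 7 annotated pseudogenes, and reads shared with them could be split by the counting. Pseudogenes are annotated for other members too, among them UBE2C (5), AURKA (2), DLGAP5 (2), NCAPG (2) and CDC20 (1).

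At the kinetochore and centromere all 8 values were negative, with a median of -0.90 and 3 called. Beside the called genes, the motor CENPE was at -0.95 (adjusted p = 0.0574) and the scaffold KNL1 at -0.86. NUF2 and NDC80, partners of SPC25 in one complex, were at -0.56 and -0.28, and the centromeric histone CENPA at -0.22. The members of this one complex thus had fold changes from -1.07 to -0.28. In the checkpoint all 5 were negative with a median of -0.56 and 1 called. The kinase BUB1 was at -0.77, the kinase TTK at -0.56, MAD2L1 (the MAD2 that binds CDC20) at -0.49 and BUB3 (the adaptor of BUB1 and BUBR1) at -0.42.

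The 4 genes of the anaphase step were all negative with a median of -0.71 and none called. PTTG1, the securin that holds separase inactive, was at -1.05 (adjusted p = 0.0703) and separase itself, ESPL1, at -0.70. CDC20, which activates the anaphase promoting complex, was at -0.72 and its ubiquitin-conjugating enzyme UBE2C at -0.42. Of the chromosomal passenger complex, which corrects wrong attachments, the scaffold INCENP had the lowest value at -1.22 (SE 0.35, adjusted p = 0.0645). INCENP had 4.06 (Molm13) and 2.11 CPM (U937) in the OE heavy libraries, against 7.6 and 5.63 CPM in the control heavy libraries. It had 2.85 and 1.85 CPM in the OE light libraries, against 3.42 and 7.74 CPM in the control light libraries, and its groups did not overlap in either pool. Its partners BIRC5 (survivin) and the kinase AURKB were at -0.67 and -0.67.

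All 11 spindle and motor genes were negative, with a median of -0.61 and 2 called. Beside KIF11 and TPX2, the midzone bundler PRC1 (-0.81) and the pole protein ASPM (-0.74) had the lowest values. The kinesins KIF2C, KIF4A, KIF23 and KIF20A were at -0.64, -0.61, -0.55 and -0.52, and the spindle proteins HMMR, NUSAP1 and DLGAP5 at -0.54, -0.43 and -0.07. PRC1 and NUSAP1 share 58.4% and 62.2% of their exonic bases with other annotated genes, so their counts are uncertain. Of 3 cytokinesis genes the ring scaffold ANLN was at -0.92 (adjusted p = 0.0582), ECT2 at -0.51 and its partner RACGAP1 at 0.09. Among 6 chromosome genes, with a median of -0.63 and MKI67 called, the condensin ATPase SMC2 was at -0.89, topoisomerase TOP2A at -0.79, the condensin I subunit NCAPG at -0.47, the second condensin ATPase SMC4 at -0.26 and the condensin I subunit NCAPD2 at 0.02. SMC2 and SMC4 form one heterodimer, and SMC4 and NCAPG share 25.6% and 33.1% of their exonic bases with neighbouring genes.

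**Figure D2:**
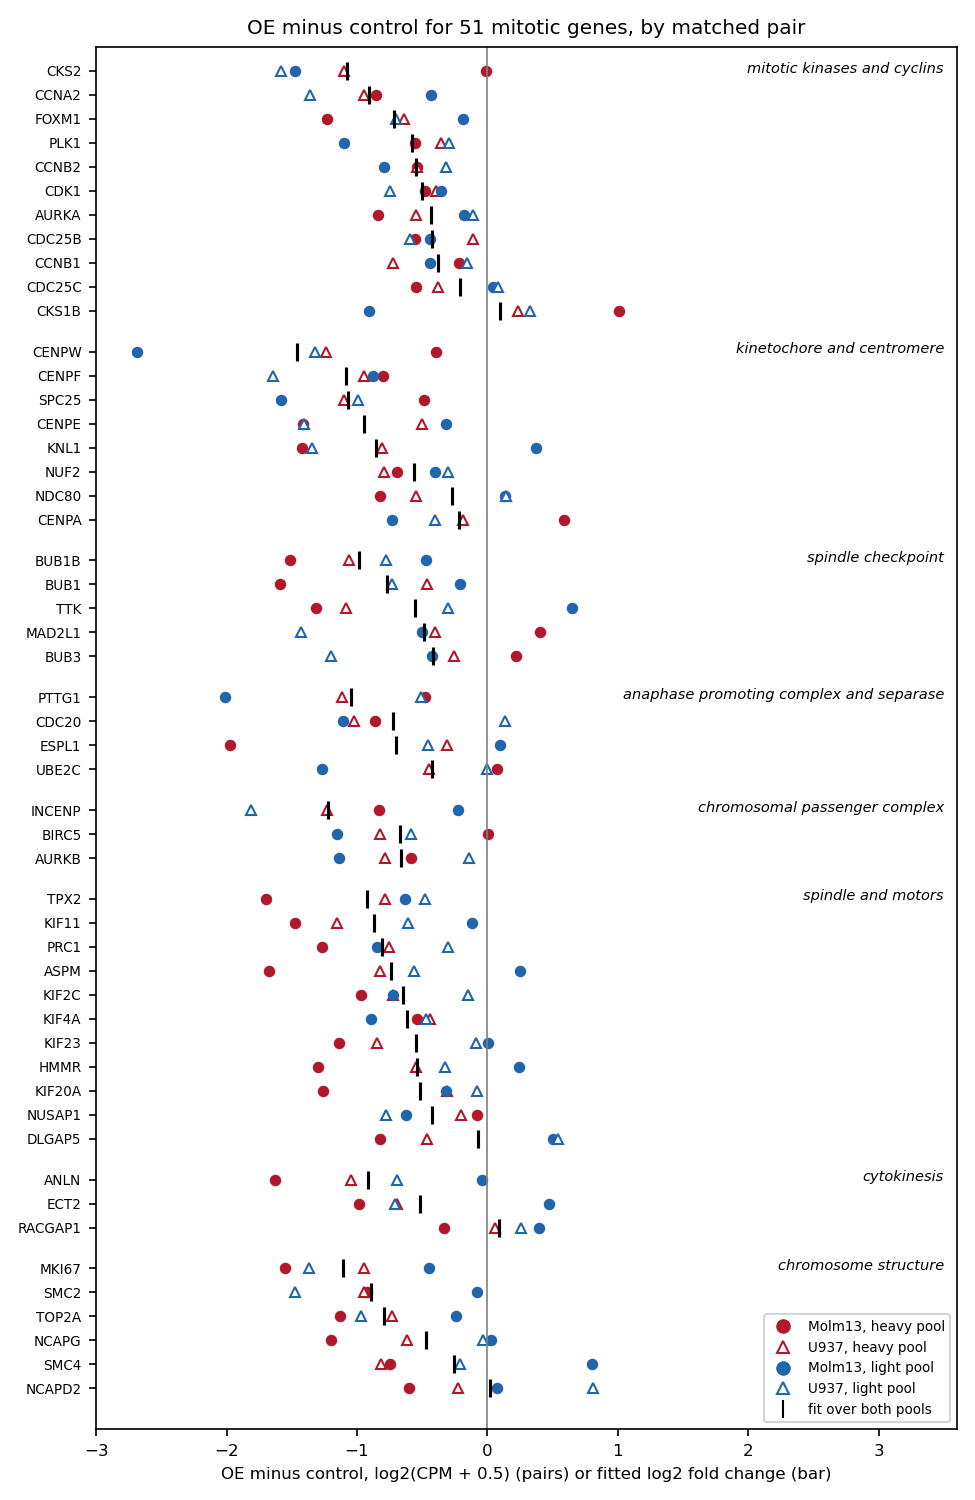
OE minus control on log2(CPM + 0.5) for the 51 genes by role, one symbol per matched pair of libraries (red heavy, blue light; filled circle Molm13, open triangle U937), with the fitted log2 fold change over both pools as a black bar. The bar lies left of zero for 48 genes, and the heavy pairs lie left of zero for 45 genes under the Molm13 label and 49 under the U937 label.

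Within a line, 1 gradient stands for each genotype, so pair values are a description without a test. On log2(CPM + 0.5), the median of the 51 genes was -0.83 in the Molm13 heavy pair, with 45 lower and 6 higher, and -0.72 in the U937 heavy pair, with 49 lower and 2 higher. In the Molm13 light pair the median was -0.40, with 37 lower and 14 higher, and in the U937 light pair -0.48, with 44 lower and 7 higher. The all-gene medians of the pairs lay between -0.05 and 0.01. The lowest pair values belonged to different genes: ESPL1 at -1.97 in the Molm13 heavy pair, CENPW at -1.24 in the U937 heavy pair and -2.68 in the Molm13 light pair, and INCENP at -1.81 in the U937 light pair. The highest was CKS1B at 1.01 in the Molm13 heavy pair.

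On heavy polysomes, the fractions with 3 or more ribosomes, 49 of 51 values were negative and the median was -0.83, against -0.03 for all genes. With edgeR no member passed (1 of 24289 genes did, 0.00412%), and the smallest p-values belonged to KIF11 at -1.35 (SE 0.32, adjusted p = 0.0916), BUB1B at -1.33 (SE 0.33, adjusted p = 0.0984), ANLN at -1.44 (SE 0.36, adjusted p = 0.0998) and TPX2 at -1.28 (SE 0.34, adjusted p = 0.115). ANLN had 2.58 (Molm13) and 5.09 CPM (U937) in the OE heavy libraries, against 9 and 11 CPM in the control heavy libraries, and the groups did not overlap. At an unadjusted p under 0.05, 29 of 51 were lower, against 6.72% of all genes, and none was higher, against 8.39%. Both OE heavy libraries lay below both control heavy libraries for 41 of 51 genes, against 24.3% of all genes, and above them for CKS1B alone, against 23.1%. The positive values were CKS1B at 0.58 and CENPA at 0.16. By role the median was lowest for the checkpoint (-1.06) and highest for kinases and cyclins (-0.48). DESeq2 called 7 members, against 4.09% of all genes. With edgeR 9 were called without the Molm13 control light library, with a median of -0.80, and 9 without U937 control light, against 5.96% and 6.18% of all genes. Without any other library 0 members were called, and of all genes 0 to 147.

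In the light pools the values were negative for 44 of 51 genes, with a median of -0.53 against -0.05 for all genes. With edgeR no member passed, nor did any of the 24289 genes (0%). The smallest p-values belonged to CENPW at -2.08 (SE 0.44, adjusted p = 0.14), SPC25 at -1.33 (SE 0.33, adjusted p = 0.146), CENPF at -1.30 (SE 0.36, adjusted p = 0.163) and CKS2 at -1.53 (SE 0.45, adjusted p = 0.172). CKS2 had 138 and 95.1 CPM in the OE light libraries, against 383 and 286 CPM in the control light libraries, and both OE libraries lay under both controls. At an unadjusted p under 0.05, 12 of 51 were lower, against 9.65% of all genes, and none was higher, against 5.18%. Both OE light libraries lay below both control light libraries for 29 of 51, against 23.1% of all genes, and above them for NDC80, DLGAP5 and NCAPD2, against 18.1%. For 21 of 51 the OE libraries lay below the controls in both pools, against 9.70% of all genes. DESeq2 called 5 members, against 3.83% of all genes. With edgeR 2 were called without the Molm13 control light library, with a median of -0.52, against 2.12% of all genes. Without U937 control light 4 of 51 were called, near the 6.06% of all genes. With upper-quartile scaling 39 of 51 were negative, and the median was -0.39 where that of all genes was 0.11, a shift of all genes by more than 0.1.

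The interaction asks whether OE shifted an mRNA between pools relative to other genes. It is the OE difference in the heavy pool minus that in the light pool. No member and no other gene of 24289 passed with edgeR (0%), 4 members were negative at an unadjusted p under 0.05 and none positive (2.08% and 3.81% of all genes were), and DESeq2 called none of the 51 and 0.0247% of all genes. The median of the members was -0.40 against 0.08 for all genes, and -0.26 without the Molm13 control light library. The smallest p-values belonged to TTK at -1.39 (SE 0.49, adjusted p = 0.791), the spindle protein DLGAP5 at -1.22 (SE 0.45, adjusted p = 0.791), ASPM at -1.13 (SE 0.50, adjusted p = 0.791) and KIF11 at -0.98 (SE 0.45, adjusted p = 0.791). TTK had 8.62 (Molm13) and 13.5 CPM (U937) in the OE heavy libraries, against 22.1 and 29.4 CPM in the control heavy libraries. It had 30.7 and 44.2 CPM in the OE light libraries, against 19.4 and 54.5 CPM in the control light libraries, so it was lower under OE in the heavy pool while the light libraries overlapped. Without U937 control light TTK passed at -1.89 (adjusted p = 0.0312), as did 4.01% of all genes, and without Molm13 control light it was at -0.93. By role the median was -0.78 for cytokinesis, -0.72 for spindle and motors and -0.62 for chromosome structure, and 0.17 for the kinetochore and for the passenger complex.

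Heavy and light pools sorted the mitotic mRNAs by gene. Each library was scaled to a common total, so higher in the heavy pool means higher relative to other genes. It does not give the share of an mRNA on heavy polysomes. Over both genotypes 17 of 51 were higher in the heavy pool, against 15.8% of all genes, and 3 were lower, against 12.8%; the median was 0.41, against -0.04 for all genes. The lead belonged to CENPW, PTTG1, SPC25, CDC20 and AURKB, and the 3 lower genes were TTK, ECT2 and FOXM1. CENPW had 227, 129, 299 and 305 CPM in the heavy libraries (Molm13 OE, U937 OE, Molm13 control, U937 control), against 18.3, 17.2, 120.1 and 43.9 CPM in the light libraries in the same order. All heavy libraries lay above all light ones, at a fold change of 2.64 (SE 0.32, adjusted p = 0.00057). PTTG1 had 317, 178, 441 and 386 CPM in the heavy libraries, against 54.2, 57.2, 220.1 and 81.7 CPM in the light libraries in that order, and its Molm13 control light value lay above the U937 OE heavy value. Its fold change was 1.82 (SE 0.32, adjusted p = 0.00182). SPC25 was at 1.60 (SE 0.24, adjusted p = 0.000898), from the libraries given above, with every heavy library above every light one.

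CDC20 had 67.6, 63.8, 123 and 130.4 CPM in the heavy libraries, against 22.3, 34.7, 48.5 and 31.7 CPM in the light libraries, with no overlap between pools and a fold change of 1.43 (SE 0.26, adjusted p = 0.00231). AURKB had 65.8, 54, 99.2 and 93.6 CPM in the heavy libraries, against 20.3, 27.9, 45.4 and 30.9 CPM in the light libraries, again with no overlap, at 1.32 (SE 0.25, adjusted p = 0.00258). These 5 genes kept their call in 13 of 13 alternatives. The next were CKS2 at 1.20, UBE2C at 1.17, BIRC5 at 1.05, PLK1 at 1.04, CCNB1 at 0.94 and PRC1 at 0.86, with adjusted p-values of 0.00827 to 0.0151. CDK1, NUF2, NDC80, CCNB2, CDC25B and MAD2L1 made up the rest of the 17. By role, 6 of 11 kinases and cyclins, 4 of 8 kinetochore genes, 3 of 4 anaphase genes, 2 of 3 passenger genes, 1 of 5 checkpoint genes and 1 of 11 spindle genes were higher, and none of the 6 chromosome genes or 3 cytokinesis genes was. All 4 heavy libraries lay above all 4 light libraries for 10 of 51, against 9.12% of all genes, and below them for none, against 9.81%.

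TTK, a checkpoint kinase, ran the other way. It had 8.62, 13.5, 22.1 and 29.4 CPM in the heavy libraries, against 30.7, 44.2, 19.4 and 54.5 CPM in the light libraries in the same order, and the low light value, Molm13 control, overlapped the heavy ones. Its fold change was -1.08 (SE 0.25, adjusted p = 0.00682), and its call was lost in 1 of 13 alternatives, without the U937 OE heavy library. ECT2 was at -0.84 (SE 0.26, adjusted p = 0.0294) and FOXM1 at -0.67 (SE 0.23, adjusted p = 0.0439). In the Molm13 control pair, whose light library resembled heavy ones, 47 of 51 genes were higher in the heavy pool with a median of 0.66. In the Molm13 OE, U937 OE and U937 control pairs 29, 30 and 30 were higher, with medians of 0.11, 0.22 and 0.21. Without the Molm13 control light library 18 genes were higher and 5 lower, with a median of 0.32, while 21.2% of all genes were higher and 16.9% lower, with a median of 0.02. Leaving out one heavy library gave 6 calls for either OE library, against 14.8% of all genes each time, 13 for Molm13 control, against 22.2%, and 8 for U937 control, against 15%. Leaving out Molm13 OE light gave 7, against 15.6%. DESeq2 called 22 of the 51, against 32.8% of all genes. With upper-quartile scaling 11 were higher and 5 lower (all genes 2846 and 4319, in place of 3833 and 3104), with a median of 0.22 where that of all genes was -0.22.

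**Figure D3:**
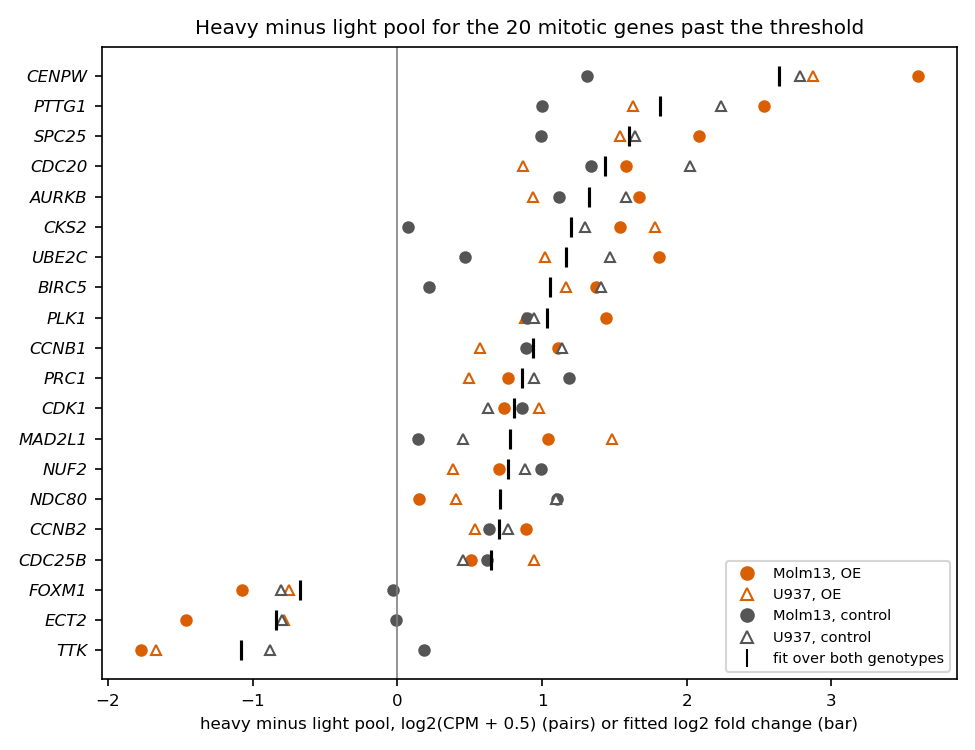
Heavy minus light pool on log2(CPM + 0.5) for the 20 genes past the threshold between pools, one symbol per gradient (orange OE, grey control; filled circle Molm13, open triangle U937), with the fitted log2 fold change as a black bar. CENPW, PTTG1, SPC25, CDC20 and AURKB lie right of zero in all 4 gradients, while TTK, ECT2 and FOXM1 lie left of zero in both OE gradients and in the U937 control gradient, and between -0.03 and 0.18 in the Molm13 control gradient.

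The order of the genes between pools followed the length of their coding sequence (the longest in GENCODE release 29). Across the 51 genes, which are not independent replicates and share libraries and depth, Spearman's correlation between coding length and the heavy minus light fold change was -0.61, against -0.10 over 13575 protein-coding genes. The 17 shortest, of 237 to 1323 bases, had a median of 0.81, the middle 17 of 0.34 and the 17 longest, of 2880 to 10431 bases, of -0.02. By gradient, the correlation was -0.689 for Molm13 OE, -0.632 for U937 OE and -0.649 for U937 control, and 0.131 for Molm13 control; over the protein-coding genes it was -0.229, -0.145, -0.167 and 0.32 in that order. Without the Molm13 control light library that of the fitted values was -0.66. The OE difference had a Spearman correlation of -0.65 with length in the heavy pool and 0.28 in the light pool, and over the protein-coding genes -0.16 and 0.17. In the heavy pool, it was -0.767 in the Molm13 pair and -0.122 in the U937 pair (protein-coding genes -0.378 and 0.052), and -0.16 in the fit without Molm13 control heavy. In the light pool the pairs had 0.59 (Molm13) and -0.134 (U937), and over the protein-coding genes 0.253 and -0.006. The cause of these relations was not tested.

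**Figure D4:**
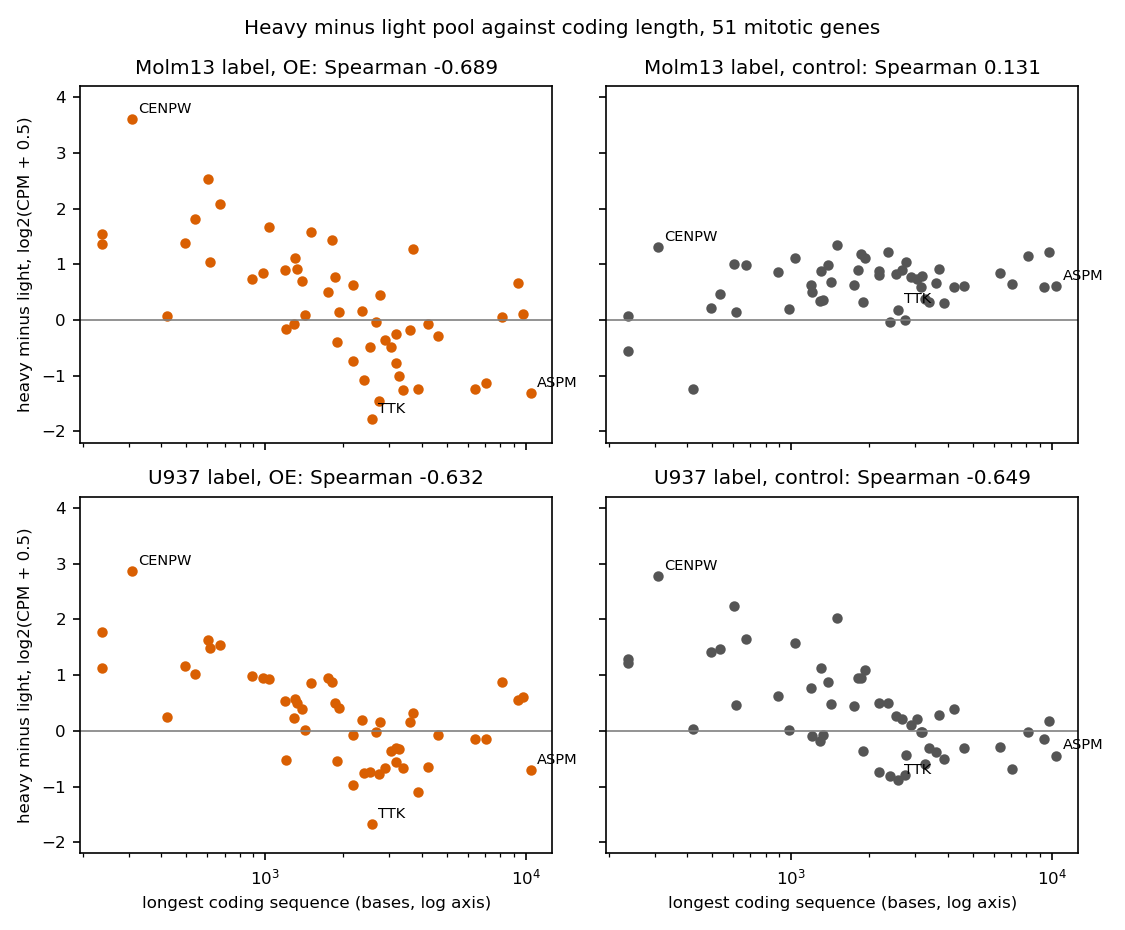
Heavy minus light pool on log2(CPM + 0.5) against the longest coding sequence in bases (log axis) for the 51 genes, one panel per gradient (OE left, control right; Molm13 above, U937 below), with Spearman's correlation in each title. CENPW, a short gene, lies high in all 4 panels and TTK lies below zero in 3 of them, while the Molm13 control panel is flat with a correlation of 0.131.

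Other mitotic genes also had mostly lower calls under the OE label, at a smaller median. Of 115 further kinetochore, checkpoint, spindle, cohesin, condensin and cytokinesis genes, 113 were tested. Over both pools 12 were lower under the OE label and 1 was higher, against 2.36% and 2.01% of all genes, with a median of -0.40. With the line term dropped 3 were lower and 0 higher, against 0.292% and 0.185% of all genes. With the pools of each gradient summed 0 were called, as were 0 of all genes. DESeq2 called 23 lower and 2 higher, against 5.83% and 5.11% of all genes. Limma voom with a gradient block called 29 lower and 2 higher, against 7.16% and 6.15%. Without the Molm13 control light library the median was -0.41. The lowest p-values were those of TRIP13 (-1.28, SE 0.22), the ATPase that disassembles checkpoint complexes, the microtubule polymerase CKAP5 (-1.27, SE 0.24), the cohesin subunit SMC1A (-1.51, SE 0.28), the augmin subunit HAUS8 (-1.15), the CENPA loading factor MIS18A (-1.20) and the CDK1-inhibiting kinase PKMYT1 (-1.14), at edgeR adjusted p-values of 0.0136 to 0.0233. The 1 higher gene, named after its value was seen, was CDC26 (1.38), a subunit of the anaphase promoting complex. In the heavy pool, the light pool and the interaction, edgeR called 0 of the 113. At an unadjusted p under 0.05, 31, 24 and 0 were lower, against 6.72%, 9.65% and 2.08% of all genes, and 2, 1 and 3 higher, against 8.39%, 5.18% and 3.81%. Between pools 26 were higher in the heavy pool and 8 lower, against 15.8% and 12.8% of all genes, and without the Molm13 control light library 32 and 15, against 21.2% and 16.9%. The smallest p-values were those of NUMA1 (1.65), the spindle protein TACC3 (1.37), PKMYT1 (1.42), the kinetochore subunits PMF1 (1.79) and ZWINT (1.65), and the condensin II subunit NCAPH2 (1.54). PKMYT1, NUMA1, PMF1 and CDC26 share 31.6%, 24.9%, 23.3% and 17.7% of their exonic bases with other annotated genes, so their counts are uncertain.

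None of the 51 genes passed between the line labels. Over all groups the median log2 difference of Molm13 against U937 was 0.00, with 26 positive and 25 negative values, and with edgeR none of the 51 passed, as none of 24289 genes did (0%). At an unadjusted p under 0.05, 7 of 51 were lower and none higher, where 6.12% of all genes were lower and 5.66% higher; DESeq2 called 303 genes (1.25%), none of them among the 51. Without the Molm13 control light library the median was -0.03 and none of the 51 passed, while 11 of all genes did. The smallest p-values belonged to FOXM1 at -0.81 (SE 0.23, adjusted p = 0.3), BUB1 at -0.81 (SE 0.25, adjusted p = 0.312), TTK at -0.77 (SE 0.25, adjusted p = 0.314) and RACGAP1 at -0.65 (SE 0.23, adjusted p = 0.335). FOXM1 had 12.3, 29.5, 26.4 and 30.1 CPM under the Molm13 label (OE heavy, control heavy, OE light, control light), against 24.7, 38.8, 41.9 and 68.2 CPM under the U937 label, lower in 4 of 4 pairs. The level of FLT3, which does not report on its internal duplication, overlapped between the labels, at 85.3 to 169.6 CPM under the Molm13 label and 93.6 to 202 CPM under the U937 label. HOXA9 was at 61.3 to 97.8 CPM under the Molm13 label and 91.2 to 107 CPM under the U937 label. Among the myeloid and haematopoietic markers the smallest p belonged to MPO, at -1.18 (SE 0.24, edgeR adjusted p = 0.153). MPO had 13.9, 31.1, 6.37 and 17.6 CPM under the Molm13 label, against 44.2, 50.9, 15.5 and 36.1 CPM under U937, in the order used for FOXM1. CSF1R went the other way at 0.82 (edgeR adjusted p = 0.378). Of the 113 other mitotic genes, edgeR called 0 between the line labels. DESeq2 called 3 of them lower under the Molm13 label and 0 higher, against 0.399% and 0.848% of all genes. The identity of the lines was not tested.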

How the data were processed

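RNA of light and heavy sucrose gradient pools was measured in 8 libraries made with a Smart-seq kit, per the labels' protocols. The submitters' processing notes name cutadapt, STAR, featureCounts and the GRCh38 build. Their versions, the annotation and whether strand was used are not stated there. The table the authors deposited holds raw counts of reads per gene. TALAM1 held 99.95% to 99.98% as many counts as its antisense partner MALAT1 in every library, so reads of overlapping genes were counted for both. Positions and coding lengths came from GENCODE release 29. The 51 genes and the lists beside them were chosen with earlier results of these data known.

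Counts were tested with edgeR 4.0.16 (quasi-likelihood, TMM, filterByExpr; R 4.3.3) in a model of group and line label over all 8 libraries (3 residual degrees of freedom, biological coefficient of variation 0.359), with Benjamini-Hochberg adjustment over 24289 genes. SE come from the quasi-likelihood F statistic. The line label pairs libraries by design; deviations from group means correlated between groups at -0.0159 to 0.495. Both pools of a gradient count as independent libraries except where summed or blocked. Pair values use log2(CPM + 0.5). Scripts were tested on simulated data. Alternatives were RLE and upper-quartile scaling, no count filter, no line term, DESeq2 1.42.0, each library left out, counts summed per gradient (1 residual degree of freedom), limma 3.58.1 voom with a gradient block, and a pseudocount of 2. Named were the 51 genes by role, per comparison those past the threshold (at most 12 by smallest p, or the 4 of smallest p where fewer passed), and up to 6 called genes of the other mitotic list. Depth limits low genes such as INCENP most.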

Additional observations from a re-analysis of the deposited data

How the results depend on the processing

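No called value changed direction under any alternative tried; the median between line labels, near 0, ranged from -0.11 to 0.01 without single libraries. Over both pools, the median of the 51 genes for OE against control was -0.53 with upper-quartile scaling, -0.65 with no filter on low counts, -0.63 with no replicate block, -0.58 with counts summed per gradient and -0.64 with limma voom and a gradient block. The number called was 5 with upper-quartile scaling, 16 with no filter and 0 with no replicate block, against 5.08%, 5.15% and 0.478% of all genes. It was 18 with DESeq2, 0 with summed gradients and 23 with limma voom, against 10.9%, 0% and 13.3%. In the heavy pool, the light pool and the interaction none of the 51 was called with the line term, so dropping it could lose no call. It added none either. Of all genes, 1 was called there with the term, in the heavy pool (0.00412%), and none without it. Between pools, dropping the line term left 16 of the 51 called, against 22.2% of all genes. In the heavy pool 7 of the 51 were called with no filter, which gave a median of -0.93, and 7 with DESeq2, against 2.33% and 4.09% of all genes. In the light pool 1 was called with no filter, near the 1.26% of all genes, and 5 with DESeq2, against 3.83%. Upper-quartile scaling gave a median of -0.39 in the light pool and 0.22 between pools. Leaving out one library at a time, the number called ranged from 0 to 21 over both pools (median -0.71 to -0.53), 0 to 9 in the heavy pool (-0.99 to -0.68), 0 to 4 in the light pool (-0.56 to -0.38), 0 to 1 in the interaction (-0.70 to -0.16) and 6 to 23 between pools (0.32 to 0.48). For single named genes, 364 values stayed on their side of the threshold, 86 no longer passed and 26 newly passed. The causes were not tested. With 2 libraries a group and 1 gradient per line and genotype, the calls over both pools are calls for libraries. They are not settled for gradients. With gradients summed no member was called, but that fit had 1 residual degree of freedom and called none of 25667 genes. It also added raw counts, so the deeper pool of a gradient weighed more. It therefore cannot decide the question, while limma voom with a gradient block called 23.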
